A study of Mus musculus with 6 samples.

Results

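The TNF receptor superfamily genes described here are 10 of the 16244 genes in the deposited table: *Tnfrsf1a*, *Tnfrsf1b*, *Tnfrsf4*, *Tnfrsf8*, *Tnfrsf9*, *Tnfrsf13b*, *Tnfrsf18*, *Tnfrsf25*, *Cd27* and *Fas*. They were chosen by gene symbol, and each symbol was found once. Naive CD4+ T cells, taken from the spleen per the labels, came from wild-type (WT) C57BL/6 mice or from knock-in mice of a C57BL/6 background that carry the N275D substitution in RORγt, the transcription factor that defines Th17 cells. The labels do not say whether the mutation was carried on both alleles, the knock-in and WT mice came from different sources, and the study's methods give adult mice of both sexes without assigning an age or sex to a library. Cells of both genotypes were activated through CD3 and CD28 and cultured for 3 days under pathogenic Th17 conditions (with IL-23, IL-1β and IL-6, while the methods also name TGF-β and antibodies to IL-4 and IFN-γ as part of the conventional mix), and 3 RNA-seq libraries were made per genotype. The comparison asks what the N275D mutation changes in these cells under inflammatory conditions.

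Receptors of this superfamily sit in the cell membrane and are engaged by trimeric ligands of the TNF superfamily, many of which are themselves on the surface of neighbouring cells. One class carries a cytoplasmic death domain and can recruit FADD or TRADD, which links it to caspase-8 or to inflammatory signaling. The other class lacks a death domain and binds TRAF adaptors, which activate NF-κB and MAP kinases, and several of its receptors (4-1BB, OX40, GITR, CD27) serve as co-stimulators of activated T cells.

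The mutant cells differed most in *Tnfrsf9*, which encodes the co-stimulatory receptor 4-1BB and was 3.81-fold higher than in WT cells. *Tnfrsf18*, which encodes GITR, was 1.32-fold higher. *Fas*, the death receptor of activated lymphocytes, was 1.61-fold lower, and the count of *Tnfrsf4* (OX40) fell by 13.3% and that of *Tnfrsf25* (DR3) fell by 12.2%. No difference was called for *Tnfrsf1a*, *Tnfrsf1b*, *Tnfrsf8*, *Tnfrsf13b* or *Cd27*.

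Values are normalized read counts, that is, the reads on a gene multiplied by 1 factor per library that the authors computed, here between 0.9823 and 1.009. Reads on genes ranged from 17659035 to 18510878 per library. Differences are log2 fold changes of the normalized count plus 1, N275D over WT, with standard errors (SE) and p-values from limma, adjusted by the Benjamini-Hochberg method over the 11908 genes whose mean count reached 10. All 10 receptors passed that minimum. A gene was called at an adjusted p under 0.05. By this rule 50.9% of all genes tested were called, 24.7% higher and 26.1% lower, and against that background 2 of the 10 receptors were higher, 3 were lower and 5 were not called. With a difference of at least 2-fold also required, 3.59% of all genes were called (2.73% higher and 0.857% lower), and *Tnfrsf9* was the 1 receptor among them. The median log2 fold change was -0.02 over the 10 receptors and 0 over all genes. The genotypes did not overlap for 6 of the 10 receptors, nor for 57.7% of all genes. Replicates differed by more than counting noise, with WT replicate 3 the farthest from its group. The labels do not say whether replicates were separate cultures or animals, so the p-values measure the spread between these libraries, which may be technical.

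**Figure D1:**
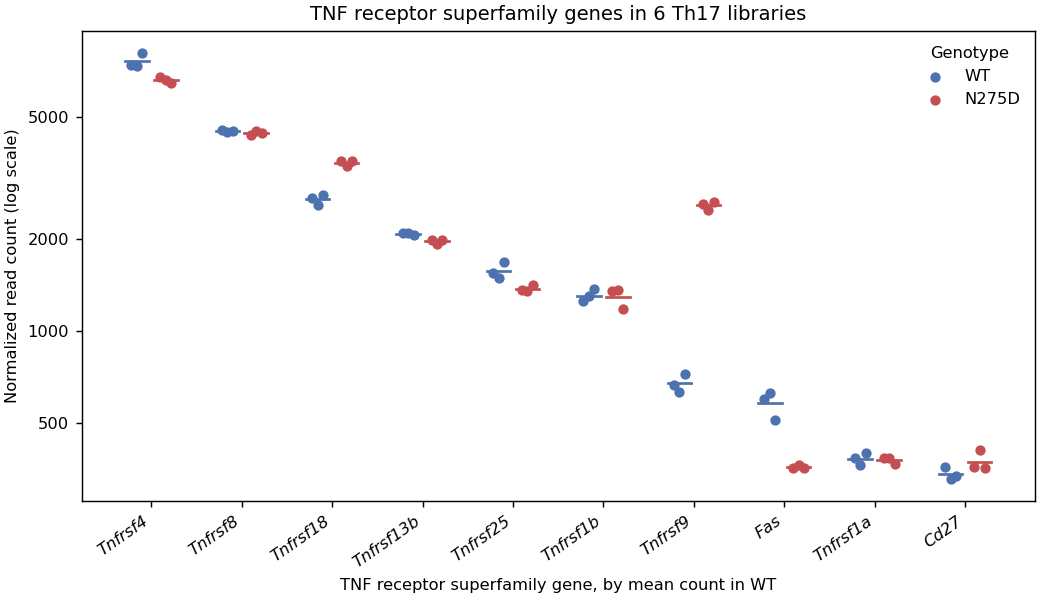
Normalized read counts of the 10 TNF receptor superfamily genes in each of the 6 libraries, on a log axis, with genes ordered by their WT mean. Each point is a library, blue for WT and red for N275D, and each bar is the mean of 3 libraries. *Tnfrsf9* shows the widest gap, with WT libraries between 631 and 722 and N275D libraries between 2476 and 2637, while the points of *Tnfrsf8*, *Tnfrsf1b*, *Tnfrsf1a* and *Cd27* overlap.

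The sequence before the transcription start is shown for the receptors with the largest difference in each direction. All 10 genes matched RefSeq (GRCm38.p6, the same build as mm10, to which the authors aligned), which gave 12 promoter windows because *Tnfrsf9* and *Tnfrsf25* have a pair of starts each. *Tnfrsf9* lies on the plus strand of chromosome 4 (150920155 to 150946104) and *Fas* on the plus strand of chromosome 19 (34290647 to 34327775). The first line holds the 250 bases before the upstream start of *Tnfrsf9* (chr4:150919905-150920154). The next holds 30 bases near its downstream start (chr4:150927947-150927976), with a κB match in capitals. The last holds the 238 bases before the first annotated exon of *Fas* (chr19:34290409-34290646), with an AP-1 match and the core of a hypoxia response element in capitals. All are on the plus strand.
Tnfrsf9 upstream start: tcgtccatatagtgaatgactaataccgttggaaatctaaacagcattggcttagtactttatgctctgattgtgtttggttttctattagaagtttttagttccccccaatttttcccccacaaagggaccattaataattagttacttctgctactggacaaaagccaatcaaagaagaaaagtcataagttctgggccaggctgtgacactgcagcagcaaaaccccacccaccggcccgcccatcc
Tnfrsf9 downstream start: agagcagctGGGGATTTCCCaggaggccct
Fas: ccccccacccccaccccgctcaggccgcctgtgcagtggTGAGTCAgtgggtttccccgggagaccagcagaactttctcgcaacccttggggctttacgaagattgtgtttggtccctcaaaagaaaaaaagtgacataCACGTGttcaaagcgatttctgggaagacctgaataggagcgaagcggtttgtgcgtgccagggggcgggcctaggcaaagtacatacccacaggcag

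The 250 bases before each start were searched on both strands for the RORE core AGGTCA, the hypoxia response element core ACGTG, the AP-1 site TGANTCA, the EGR site GCGNGGGCG and the κB site. None of the letters searched was found before the upstream start of *Tnfrsf9*. Before its downstream start, the κB match lay 43 bases and an AP-1 match 15 bases from the start. In *Fas*, the RefSeq start used for the window was 34290659, inside the gene span given above. The AP-1 match lay 211 bases before that start, and ACGTG was found on both strands at the same palindrome, about 110 bases before it. ACGTG was also found before *Tnfrsf4*, *Tnfrsf8* and *Tnfrsf25*, so that it was present in 4 of the 10 receptors and in 16.6% of all 32851 windows. AGGTCA was found in *Tnfrsf13b* and *Tnfrsf25*, against 14% of all windows, and the EGR site in none of the 10, against 4.7%. AP-1 and κB matches were each found in 3 receptors, against 6.75% and 7.25% of all windows. *Tnfrsf18*, *Tnfrsf1a*, *Tnfrsf1b* and *Cd27* held none of the 5. A receptor with a pair of starts had 2 windows, and these matches describe letters, not binding.

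Among the death domain receptors, *Fas* fell. It encodes the receptor through which Fas ligand triggers apoptosis of activated lymphocytes. Normalized counts were 598, 626 and 512 in the WT libraries and 354, 364 and 356 in the N275D libraries. The lowest WT library lay above the highest mutant library, and the mutant libraries were the more tightly grouped (579 ± 59.6 against 358 ± 5.34, SD, n = 3). The log2 fold change was -0.69 (SE 0.07, 95% interval -0.84 to -0.53, limma adjusted p = 1.19e-06), which placed it at rank 231 among the 11908 genes ordered from the largest decrease. The lowest WT value came from WT replicate 3, without which the log2 fold change was -0.77.

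*Tnfrsf25* encodes DR3, the death domain receptor for TL1A, which co-stimulates T cells. Its normalized counts were 1539, 1482 and 1672 in WT and 1356, 1349 and 1412 in mutant libraries, so the genotypes did not overlap, but the gap between the lowest WT and the highest mutant library was small. The mean fell from 1564 ± 97.4 to 1372 ± 34.6 (SD, n = 3), with a log2 fold change of -0.19 (SE 0.05, limma adjusted p = 0.00535). Here WT replicate 3 was the highest, and the log2 fold change was -0.14 without it (adjusted p = 0.00771). The median absolute log2 fold change over all genes tested was 0.19, so a difference of this size was common in these cells.

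*Tnfrsf1a* encodes TNFR1, the widely expressed receptor for TNF and lymphotoxin-α. It had 383, 363 and 399 normalized counts in WT and 384, 382 and 367 in mutant libraries. The genotypes overlapped throughout, and the log2 fold change was -0.01 with a 95% interval of -0.15 to 0.13 (limma adjusted p = 0.887). Of the 3 death domain receptors, 2 were lower and none was higher, where 26.1% and 24.7% of all genes were.

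*Tnfrsf9* stood apart among the receptors that bind TRAF adaptors. It encodes 4-1BB, a receptor induced on T cells by activation, whose ligand is 4-1BBL. Normalized counts were 666, 631 and 722 in WT and 2591, 2476 and 2637 in mutant libraries. Every mutant library lay more than 3-fold above every WT library. The mean rose from 673 ± 45.7 to 2568 ± 82.8 (SD, n = 3), a log2 fold change of 1.93 (SE 0.05, limma adjusted p = 1.42e-13) and a fold of 3.81 with a 95% interval of 3.53 to 4.12. It ranked 32 among increases and 46 among changes in either direction, out of 11908 genes. *Camta1*, which overlaps it on the opposite strand, had means of 71.7 in WT and 90.3 in mutant cells. Whether reads were counted by strand is not given in the sources used here, and the part of shared reads in the difference was not tested.

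*Tnfrsf18* encodes GITR, which is high on regulatory T cells and rises on conventional T cells after activation. Its normalized counts were 2708, 2582 and 2775 in WT and 3588, 3457 and 3579 in mutant libraries, without overlap. The mean rose from 2688 ± 97.7 to 3541 ± 73.1 (SD, n = 3), with a log2 fold change of 0.40 (SE 0.04, limma adjusted p = 6.9e-07). An antisense gene, *Gm16008*, overlaps it, and its reads cannot be told apart if counting ignored strand. Of 8 regulatory T cell markers listed, 3 were higher, 2 were lower and 3 were not called. Over all genes tested, 24.7% were higher and 26.1% lower. The higher markers were *Ikzf4*, *Lrrc32* and *Il10*, with log2 fold changes of 0.39, 0.61 and 0.71. The lower markers were *Ctla4* and *Gpr83*, with -0.24 and -0.51. *Foxp3*, the factor that defines regulatory T cells, was not called, with means of 50.9 in WT and 38.2 in mutant libraries (limma adjusted p = 0.0755). The part of regulatory T cells in the *Tnfrsf18* difference was not tested.

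*Tnfrsf4*, 9.7 kb from *Tnfrsf18* on chromosome 4, encodes OX40, a co-stimulator of activated CD4+ T cells. It moved the other way, with normalized counts of 7398, 7324 and 8126 in WT and 6743, 6604 and 6448 in mutant libraries. The genotypes did not overlap. The mean fell from 7616 ± 443 to 6598 ± 147 (SD, n = 3), a log2 fold change of -0.21 (SE 0.04, limma adjusted p = 0.000625), which was -0.16 without WT replicate 3, the highest library (adjusted p = 8.46e-05). *Sdf4*, on the same strand, shares 16 bases with *Tnfrsf4* in the annotation and was higher in mutant cells (log2 fold change 0.55). Whether shared reads had a part in the *Tnfrsf4* difference was not tested.

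*Tnfrsf8*, which encodes CD30, a marker of activated lymphocytes, did not pass the test. Its counts were 4537, 4476 and 4513 in WT and 4379, 4493 and 4420 in mutant libraries. Apart from *Tnfrsf13b*, no receptor had WT libraries this close together, and the 95% interval of the log2 fold change was -0.10 to 0.05 (limma adjusted p = 0.572). *Tnfrsf1b* encodes TNFR2, the receptor for membrane TNF that is prominent on T cells. It had 1247, 1294 and 1365 counts in WT and 1345, 1354 and 1178 in mutant libraries, with N275D replicate 3 the lowest of all 6 and a 95% interval of -0.13 to 0.11 (limma adjusted p = 0.87). *Cd27*, a co-stimulatory receptor of naive and memory T cells, had 357, 326 and 335 counts in WT and 357, 406 and 356 in mutant libraries. The genotypes overlapped, and the interval of -0.02 to 0.29 left room for a small increase (limma adjusted p = 0.137). Of the 6 receptors listed here as TRAF-binding, 2 were higher, 1 was lower and 3 were not called, a called share close to the 50.9% of all genes. That list left out *Tnfrsf13b*, which was listed apart and is described next.

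*Tnfrsf13b* encodes TACI, which is best known on B cells, where it binds BAFF and APRIL. It was well covered in these cultures, with 2081, 2081 and 2062 normalized counts in WT and 1987, 1916 and 1981 in mutant libraries. All mutant libraries lay below all WT libraries, but the difference was small (log2 fold change -0.08, SE 0.04) and did not pass the test (limma adjusted p = 0.102). Of 12 markers of B cells listed, 9 were tested, of which 6 were higher, none was lower and 3 were not called. Over all genes tested, 24.7% were higher and 26.1% lower. The summed counts of the B cell markers were 1208 to 1262 in WT and 1807 to 1874 in mutant libraries, most of it *Ebf1* (986 and 1479). *Ms4a1*, which encodes CD20, had 1.01, 0 and 0 counts in WT and 3.99, 4.01 and 9.88 in mutant libraries. It was higher in every mutant library but had too few reads to be tested. The part of B cells in the *Tnfrsf13b* counts was not tested.

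**Figure D2:**
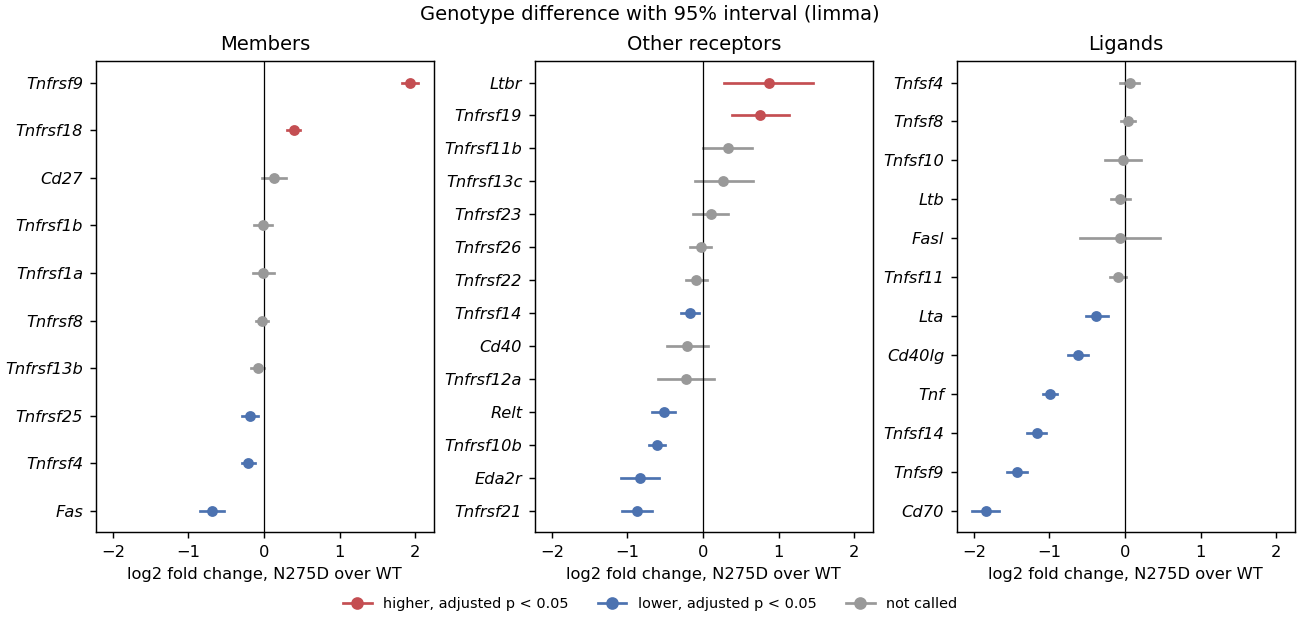
Log2 fold changes, N275D over WT, with 95% intervals from limma, for the 10 receptors described here (left), the other tested receptors of the superfamily (middle) and the tested ligands (right). Red marks genes called higher, blue genes called lower and grey genes that were not called. *Tnfrsf9* at 1.93 lies far to the right of every other gene drawn, and no ligand was called higher.

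The markers of the other cells that such a culture could hold were read beside these differences. Of 12 Th17 and T cell markers, 7 were higher, 3 were lower and 2 were not called. For this list and those that follow, the shares over all genes tested were 24.7% higher and 26.1% lower. *Il17a* and *Il17f*, the signature cytokines, had WT means of 27495 and 32635, so the label of the cells and their markers matched. The lower ones included *Cd4* and *Cd3e*, with log2 fold changes of -0.27 and -0.22. Of 8 CD8 T and NK cell markers, 5 were tested and 4 were higher, with summed counts of 262 to 290 in WT and 375 to 426 in mutant libraries. Of 10 myeloid markers, 3 were tested, 1 higher and 1 lower, with sums of 96.9 to 124 and 115 to 150. Of 6 γδ T cell markers, 2 were in the table (*Sox13* and *Blk*) and both were higher, with sums of 31.3 to 41.3 and 58.3 to 65.9. *Blk* is also counted among the B cell markers above. The part of these cells in the receptor differences was not tested. In bulk samples, fewer cells of a type and less RNA per cell cannot be told apart.

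Several of these receptors are induced through the T cell receptor, so 19 genes of the T cell activation response were listed as well. Of these, 13 were lower, 5 were higher and 1 was not called in mutant cells, where 26.1% of all genes were lower and 24.7% higher. The median log2 fold change was -0.40 against 0 over all genes. *Egr3* fell from 1631 to 557 mean counts and *Il2* from 10361 to 2142, whereas *Il2ra*, *Icos* and *Dusp5* rose, with log2 fold changes of 0.30, 0.44 and 0.75. Of the abundant genes of this list, *Junb* fell from 18599 to 12683 mean counts and *Cd44* was not called (10050 and 9949). *Tnfrsf9* and *Tnfrsf18* lay with the smaller group that rose, and *Tnfrsf4* with the larger group that fell. The part of activation in the receptor differences was not tested.

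Each receptor was next set against its own ligand within a library, a ratio that does not depend on the scaling between libraries. Of 10 receptor and ligand pairs listed, 7 could be computed, because the ligands of *Tnfrsf13b*, *Tnfrsf18* and *Tnfrsf25* (*Tnfsf13b*, *Tnfsf18* and *Tnfsf15*) were below the minimum, with at most 8.98 counts in a library. With 3 libraries against 3, the exact permutation test (two-sided) cannot give a p below 0.1, which is 0.122 after adjustment over 11 pairs, the 4 pairs of receptors described further on included, so no ratio could pass the threshold. The genotypes did not overlap in 6 of the 7 receptor and ligand pairs, 4 with a higher and 2 with a lower ratio in mutant cells, where 57.7% of all single genes did not overlap.

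The largest difference was in *Tnfrsf9* over *Tnfsf9*, the gene for 4-1BBL. The ratio was 0.944, 0.921 and 1.01 in WT and 10.2, 9.57 and 9.78 in mutant libraries. Normalized counts of receptor and ligand, not divided by length, were about equal in WT cells and far apart in mutant cells. The ligand fell from a mean of 701 to 260 (limma adjusted p = 2.37e-11) while the receptor rose. The log2 difference of the ratio was 3.36, or 10.3-fold (exact permutation p = 0.1, adjusted p = 0.122).

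For *Cd27*, the ratio to *Cd70* was 0.826, 0.704 and 0.629 in WT and 2.72, 3.15 and 2.6 in mutant libraries, a 3.93-fold higher ratio (exact permutation p = 0.1). The ligand's mean fell from 476 to 132 (log2 fold change -1.84, limma adjusted p = 5.84e-11), while *Cd27* itself was not called. *Tnf* fell from 1940 to 978 mean counts (limma adjusted p = 3.09e-11), and the ratios of *Tnfrsf1a* and *Tnfrsf1b* to it were both 1.97-fold higher, with neither receptor called. *Tnfrsf8* and its ligand gene *Tnfsf8* (2842 and 2915 mean counts) both stayed within the spread of the replicates, and their ratio overlapped between genotypes. In the remaining pairs the ligands *Tnfsf4* and *Fasl* were not called, and the ratios were lower with the receptor, with log2 differences of -0.26 for *Tnfrsf4* over *Tnfsf4* and -0.62 for *Fas* over *Fasl*. The *Tnfrsf4* ratio moved to -0.15 without WT replicate 3. *Fasl* had means of only 17.3 and 16.6 counts, which limits that ratio.

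**Figure D3:**
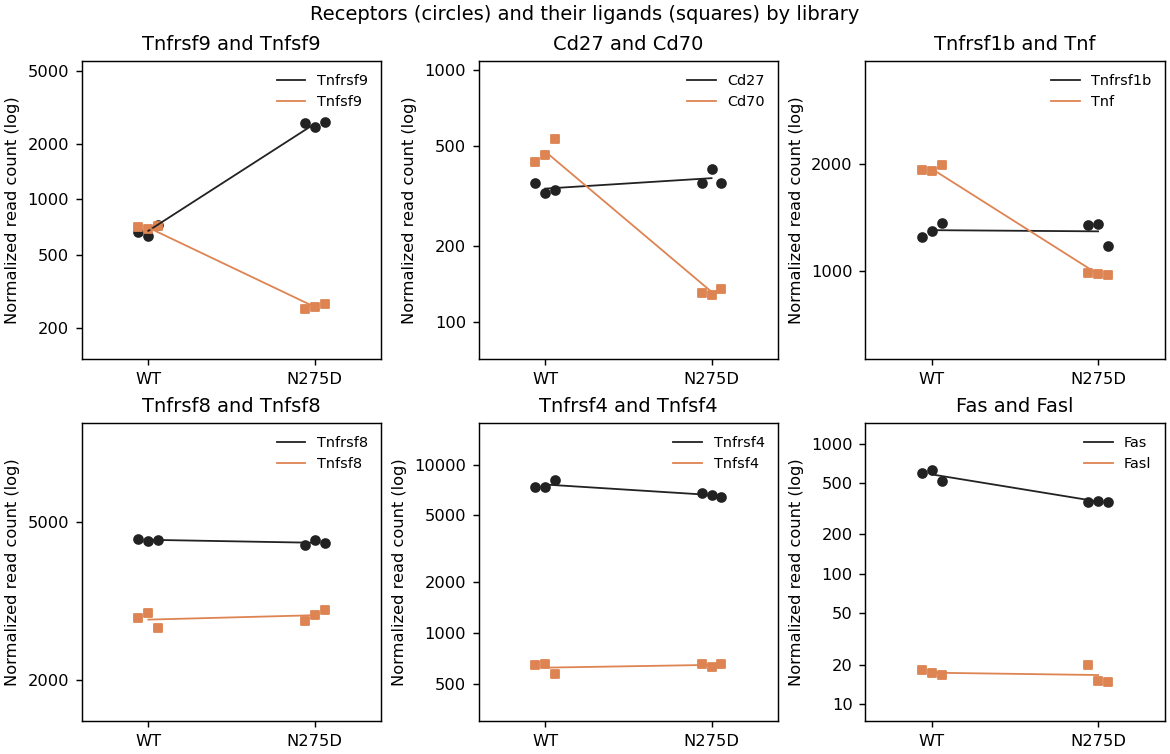
Normalized read counts of 6 receptors (black circles) and their ligands (orange squares) in the 6 libraries, on log axes that differ between panels. Lines join the genotype means. *Tnfrsf9* and *Tnfsf9* part in opposite directions, *Cd27* and *Tnfrsf1b* stay level while *Cd70* and *Tnf* fall, and *Tnfrsf8* and *Tnfsf8* both stay level.

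Ratios between receptors were read in the same way. *Tnfrsf18* over its neighbour *Tnfrsf4* was 0.366, 0.353 and 0.342 in WT and 0.532, 0.524 and 0.555 in mutant libraries, 1.52-fold higher with no overlap (exact permutation p = 0.1). *Tnfrsf9* over *Tnfrsf4* was 4.4-fold higher. The ratio of the TNF receptor genes, *Tnfrsf1b* over *Tnfrsf1a*, was 3.25, 3.56 and 3.42 in WT and 3.49, 3.54 and 3.2 in mutant libraries, and its log2 difference was 0 (exact permutation p = 1). Between the lower death domain receptors, *Fas* over *Tnfrsf25* was 1.41-fold lower, again with no overlap (exact permutation p = 0.1).

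To compare levels between receptors, normalized counts were divided by the length of all annotated exons in kilobases. *Tnfrsf4* was the most abundant receptor transcript in both genotypes, with 7394 ± 430 counts per kb in WT libraries and 6406 ± 143 in mutant ones (SD, n = 3). *Tnfrsf18* followed with 2134 ± 77.6 and 2811 ± 58, and *Tnfrsf8* with 1321 ± 9.01 and 1298 ± 17. *Tnfrsf9* moved from 271 ± 18.4 (8th of 10) to 1033 ± 33.3 (4th), past *Tnfrsf13b* (812 and 767) and *Tnfrsf25* (822 and 721). *Fas* went from 322 ± 33.2 (7th) to 199 ± 2.97 (9th). *Tnfrsf1b* (341 and 339), *Cd27* (218 and 239) and *Tnfrsf1a* (177 and 175) made up the lower end. In WT cells the neighbours *Tnfrsf25* and *Tnfrsf13b*, *Tnfrsf1b* and *Fas*, and *Fas* and *Tnfrsf9* overlapped between libraries and had no clear order. In mutant cells no neighbours overlapped. The order depends on the length used: with the longest transcript in place of all exons, the mutant libraries gave *Fas* 239 to 246 and *Cd27* 228 to 261 counts per kb, which overlap, and *Tnfrsf25* (mean 826) lay above *Tnfrsf13b* (mean 767).

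The summed level of the 10 receptors per kb was 13384 to 14432 in WT and 13878 to 14165 in mutant libraries, so the genotypes overlapped in that total. Without division by length, the summed counts were 21186 to 22480 in WT and 22734 to 23083 in mutant libraries and did not overlap. Of the summed level per kb, *Tnfrsf4* made up 53.5% ± 1.02 in WT and 45.8% ± 0.598 in mutant cells. *Tnfrsf18* made up 15.5% ± 0.287 and 20.1% ± 0.38 of it, and *Tnfrsf9* 1.96% ± 0.0577 and 7.38% ± 0.246 (SD, n = 3). Shares of one sum are not independent, since a rise in one lowers the others.

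**Figure D4:**
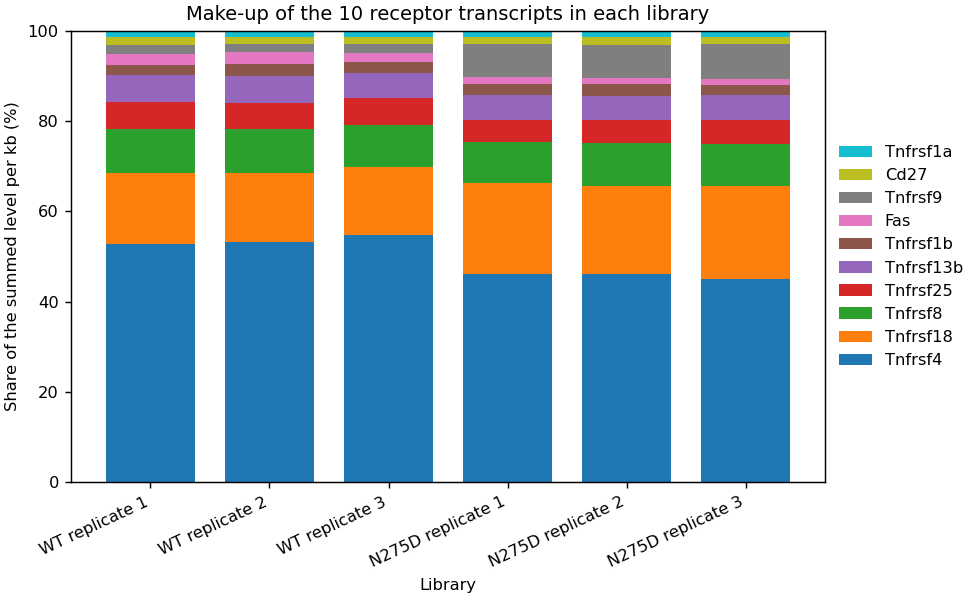
Share of each of the 10 receptors in their summed level per kb (%), stacked from 0 to 100% for each of the 6 libraries, with genes stacked in the order of their WT level. The *Tnfrsf9* band (grey) widens from 1.9 to 2.01% in the WT libraries to 7.15 to 7.64% in the N275D libraries, and the *Tnfrsf4* band at the base narrows from 52.7 to 54.7% to 45.1 to 46.2%.

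Of 18 further receptors of the superfamily that were listed, 16 were in the table, 14 were tested, 2 were higher, 5 were lower and 7 were not called, a called share close to that among all genes (50.9%), with a median log2 fold change of -0.13. Both higher genes had few reads. *Ltbr*, the lymphotoxin-β receptor, rose from 11.0 to 21.3 mean counts (limma adjusted p = 0.0158). That call was lost without N275D replicate 1 and after quantile normalization (log2 fold change 0.64, limma adjusted p = 0.0648). *Tnfrsf19* rose from 27.7 to 47.5 (limma adjusted p = 0.00222). Lower genes included other death domain receptors. *Tnfrsf21*, which encodes DR6, fell from 213 to 117 and *Tnfrsf10b*, the mouse TRAIL receptor, from 1020 to 669 (limma adjusted p = 1.8e-06 and 1.29e-07). *Eda2r* fell from 133 to 74.4 and *Relt* from 448 to 312, with log2 fold changes of -0.83 and -0.52.

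Of 12 ligands tested, 6 were lower and none was higher, where 26.1% and 24.7% of all genes were, with a median log2 fold change of -0.24. Besides *Cd70*, *Tnfsf9* and *Tnf*, these were *Tnfsf14* (LIGHT), *Cd40lg* (CD40 ligand) and *Lta* (lymphotoxin-α), with log2 fold changes of -1.17, -0.62 and -0.38.

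Of 30 adaptors and regulators downstream of the receptors, 5 were higher, 12 were lower and 13 were not called, where 50.9% of all genes were called, with a median log2 fold change of -0.02, and none was called at 2-fold. The higher ones numbered 3 without WT replicate 1 or without N275D replicate 3, and the lower ones 7 without N275D replicate 2. *Traf1* and *Traf2*, the adaptors that 4-1BB binds, had log2 fold changes of 0.09 and 0.06 and were not called (limma adjusted p = 0.0517 and 0.306), although all *Traf1* counts in mutant libraries (4273 to 4323) lay above those in WT (3909 to 4202). The *Traf1* call depended on the setting, since it passed with TMM scaling (adjusted p = 0.0479), with quantile normalization (log2 fold change 0.18, adjusted p = 0.00108), with a minimum mean of 100 and without WT replicate 3 (0.12, adjusted p = 0.00196). *Traf6* and *Tab2*, which act in the pathway to the kinase TAK1, rose with log2 fold changes of 0.26 and 0.28, while *Map3k7*, which encodes TAK1, fell with one of -0.27. *Casp8* and *Cflar*, the caspase and its decoy regulator in the complex formed at Fas, both rose with log2 fold changes of 0.15, and *Fadd*, which joins them to the receptor, was not called (323 and 293 mean counts). *Cyld*, a deubiquitinase that restrains NF-κB signaling, fell with a log2 fold change of -0.34, and *Traip* and *Siva1* with -0.38 and -0.33.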

How the data were processed

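RNA-seq of 3 WT and 3 RORγtN275D Th17 libraries was analysed. The methods name strand-specific DNBSEQ libraries, but the labels name poly-A selection with a directional NEBNext kit. Trimming, alignment with STAR (build mm10) and counting with featureCounts were done by the authors. Versions, annotation and strand setting are not given in the sources used here. The signal values the authors deposited are read counts per gene scaled by a single factor for each library, and 100% of them were whole multiples of that factor (tolerance 1e-06). The deposited fold changes, q-values and group averages were not used.

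Groups came from the labels. Normalized counts plus 1 were put on the log2 scale, which understates the changes of low genes, and genes with a mean of at least 10 were tested with limma (version 3.58.1, R 4.3.3) with a trended prior and no block. A pair ratio was tested with an exact permutation test over libraries. Alternatives were other pseudocounts, filters, scalings and priors, a replicate block and leaving out each library. Exon lengths came from GENCODE vM21, positions and promoters from RefSeq GRCm38.p6, which 16135 of 16244 genes matched.

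The receptors, gene lists, pairs and motifs were chosen with earlier results of these data known. Named are all receptors and their ligands, up to 4 called genes per direction from the lists of other receptors, ligands and adaptors without overlap between genotypes, and markers where a result needed them. *Cd40lg*, *Lta*, *Fadd*, *Traf1*, *Traf2*, *Casp8*, *Cflar* and the genes named because they overlap or neighbour a receptor were singled out after their values were seen. So were *Egr3*, *Il2*, *Icos*, *Dusp5* and the regulatory T cell markers named. Values of some marker genes are not reported here.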

Additional observations from a re-analysis of the deposited data

How the results depend on the processing

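All 10 receptors kept their side of the threshold, and the 5 called ones their direction, under each of 14 alternatives (2 pseudocounts, 2 filters, 2 scalings, eBayes without a trend, the replicate block and each library left out), so that 2 were higher and 3 lower throughout. The log2 fold change ranged from 1.89 to 1.98 for *Tnfrsf9*, from -0.77 to -0.63 for *Fas* and from 0.37 to 0.46 for *Tnfrsf18*. It ranged from -0.23 to -0.16 for *Tnfrsf4* and from -0.23 to -0.14 for *Tnfrsf25*, whose highest adjusted p values were 0.0245 and 0.0388, both without a trend. The lowest adjusted p of *Tnfrsf13b* was 0.0576, without WT replicate 3. The count of genes at 2-fold, 427, was 259 with a pseudocount of 10, 703 with a mean above 0 and 162 with a mean of at least 100, where fewer genes were tested. Of the other receptors, 0 were higher with that last filter, 1 after quantile normalization and 1 to 2 with a library left out. Among adaptors, 3 to 6 were higher and 7 to 13 lower with a library left out. The cause of these changes was not tested. With the longest transcript in place of all exons, chosen after seeing the data, *Tnfrsf4* made up 52.1% and 44.2% (WT and mutant), *Tnfrsf18* 16% and 20.6% and *Tnfrsf9* 2.24% and 8.38%. Same-numbered libraries did not deviate together (correlations -0.05, 0.04 and -0.08). No pairing by number was seen, but these correlations cannot exclude a weak one. The replicate block gave 5727 calls against 6056. Scaling moved the median of all genes by at most 0.02. The planned edgeR and DESeq2 tests were not run. Few reads limit *Ltbr*, *Tnfrsf19* and *Fasl*.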

Other observations

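The genes within 200 kb of *Tnfrsf9*, *Fas* and *Tnfrsf4* were read from the same limma fit, a choice made after the values were seen. Of 5 tested neighbours of *Tnfrsf9*, 1 was higher, none was lower and 4 were not called, with log2 fold changes from -0.14 to 0.34. The higher one was *Park7*, which encodes the redox-sensing protein DJ-1 and had means of 1774 in WT and 2139 in mutant libraries (limma adjusted p = 0.000309). *Errfi1*, *Per3*, *Vamp3* and *Camta1* were not called. Of the 2 tested neighbours of *Fas*, *Stambpl1* had means of 691 and 722 and *Lipa*, the lysosomal acid lipase gene, means of 596 and 580, and neither was called.

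The region of *Tnfrsf4* and *Tnfrsf18* was denser, with 17 tested neighbours of *Tnfrsf4*, of which 6 were higher and 6 were lower, with log2 fold changes from -0.63 to 1.33. The highest was *Isg15*, an interferon-stimulated gene. *Pusl1*, which is named for its likeness to pseudouridine synthases, fell from 454 to 311 mean counts (limma adjusted p = 1.03e-05). Among all genes tested, 24.7% were higher and 26.1% lower.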
